A study of Sus scrofa with 15 samples.

Results

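Mesenchymal transcription factors that define fibroblasts were followed from donor cells into cloned pig embryos. The members, chosen by gene symbol, were PRRX1, TWIST1, TWIST2, TCF21, RUNX1, RUNX2, SNAI1, SNAI2, ZEB1 and ZEB2, which are 10 of 28224 known genes and of 43294 features in all. Embryos were made by somatic cell nuclear transfer (SCNT), in which the nucleus of a cultured cell is placed in an enucleated oocyte, and RNA-seq was made from 5 groups of 3 libraries. PFF were primary porcine fetal fibroblasts of passages 2 to 5, the nuclear donors. SCNT4c and SCNT8c were untreated cloned embryos of the 4-cell and the 8-cell stage. SCNT4c-KG were 4-cell cloned embryos injected 5 h after activation with 1000 ng/µl mRNA of KDM4A, a demethylase of histone H3 lysine 9, and cultured for 48 h with 0.1 µM GSK126, an inhibitor of the histone H3 lysine 27 methyltransferase EZH2. SCNT4c-TDG were 4-cell cloned embryos from PFF transfected with a doxycycline-inducible vector for TDG, a thymine DNA glycosylase, and selected with puromycin, and they received 500 ng/ml doxycycline from 40 to 72 h. Each embryo library was a pool of 30 embryos. All embryos were made with PFF nuclei. No group analysed here was a mock injection or carried the vector without doxycycline, so a treatment and its delivery cannot be told apart. The labels do not say that the libraries of a group came from separate cultures or days, so the p-values measure the spread between libraries, which may be technical.

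The factors stand at the top of the programme that makes a cell mesenchymal. TWIST1 and TWIST2 are basic helix-loop-helix factors, and SNAI1, SNAI2, ZEB1 and ZEB2 are zinc finger repressors that bind E-box sequences and silence epithelial genes such as CDH1. PRRX1 is a homeobox factor of limb and craniofacial mesenchyme, TCF21 is a helix-loop-helix factor of visceral fibroblast progenitors, and RUNX1 and RUNX2 are runt-domain factors best known in blood and in bone. After nuclear transfer such donor cell genes have to be silenced while embryonic genes come on, and the comparisons with PFF ask how much of the donor level was seen in the embryos.

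Promoter windows of 250 bases upstream of the annotated start are shown (Sscrofa11.1, RefSeq annotation, strand of the gene) for SNAI1 and TWIST1. SNAI1 is the member that appeared in SCNT4c-KG, and TWIST1 the member with the largest share left. Capitals mark the E-box CACCTG, whose reverse complement CAGGTG was searched as the same motif.
SNAI1, chr17:51546196-51546445, plus strand: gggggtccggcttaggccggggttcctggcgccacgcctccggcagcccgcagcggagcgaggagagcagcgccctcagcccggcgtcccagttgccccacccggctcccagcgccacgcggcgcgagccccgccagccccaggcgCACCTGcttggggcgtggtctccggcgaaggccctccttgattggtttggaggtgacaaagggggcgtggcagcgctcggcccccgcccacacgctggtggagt
TWIST1, chr9:88290132-88290381, minus strand: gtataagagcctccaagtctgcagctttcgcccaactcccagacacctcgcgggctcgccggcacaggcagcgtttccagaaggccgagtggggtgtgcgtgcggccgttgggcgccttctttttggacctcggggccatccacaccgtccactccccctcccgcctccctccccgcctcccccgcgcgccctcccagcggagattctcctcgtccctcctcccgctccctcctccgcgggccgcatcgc

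The SNAI1 window held 1 E-box and 27 CpG dinucleotides, and the TWIST1 window held 0 and 25. Among the members the E-box letters were found in the windows of SNAI1, ZEB1 and RUNX1. The same letters occurred in 3825 of 19556 windows of protein-coding genes (19.6%), whose median number of CpG was 12. A match of letters is a description and not a binding site.

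The libraries held 12354649 to 22868038 reads on features, with 12354649 to 15390472 in SCNT4c-KG and 17757929 to 22868038 in the other groups. Log2 values of all features correlated between libraries of a group with r of 0.991 in PFF, 0.904 to 0.953 in SCNT4c, 0.909 to 0.927 in SCNT4c-KG, 0.954 to 0.965 in SCNT4c-TDG and 0.782 to 0.919 in SCNT8c. Normalized signal, the reads divided by 1 factor per library, is given throughout, with the SD of n = 3 after ±, and gene positions are those of Sscrofa11.1. KDM4A had 1448 ± 24.9 in SCNT4c-KG against 194 ± 103 in SCNT4c, and TDG had 55575 ± 5177 in SCNT4c-TDG against 1713 ± 802. Each was also above SCNT4c with the other treatment, KDM4A at 775 ± 194 in SCNT4c-TDG and TDG at 4366 ± 436 in SCNT4c-KG. The sum of 12 fibroblast markers was 3373809 to 3677417 in PFF and 1585 to 4876 in the embryos, with PDGFRA listed at 0 in every group. The sum of 11 oocyte and early embryo markers was 11.5 to 21.5 in PFF and 44576 to 116459 in the embryos, where GDF9, BMP15 and MOS were listed at 0. The sum of 11 cumulus or granulosa cell markers was 576 to 1987 in the embryos, most of it INHBA. Of these markers 6 had a mean of at least 10 in SCNT4c, 6 in SCNT8c, 3 in SCNT4c-KG and 4 in SCNT4c-TDG, and 3, 4, 5 and 4 were at 0, among them AMH, PTX3 and FOXL2 in each group. They did not move together: from SCNT4c to SCNT4c-KG, STAR went from 28.8 ± 6.50 to 244 ± 111 and TNFAIP6 from 79.3 ± 97.7 to 137 ± 61.7, whereas INHBA went from 1412 ± 137 to 673 ± 32.4, CYP19A1 from 38.1 ± 18.8 to 7.64 ± 5.604, GREM1 from 28.4 ± 11.3 to 5.84 ± 7.46 and CYP11A1 from 12.9 ± 12.7 to 2.85 ± 4.94. The part of such cells in the results was not tested. The endothelial sum was 1029 to 1319.6 in SCNT4c, 69.0 to 558 in SCNT8c, 69.8 to 172 in SCNT4c-KG and 426 to 603 in SCNT4c-TDG. Most of it was TEK in each of these groups, with CDH5 and KDR at or near 0. The muscle sum reached 204 in the embryos, in SCNT8c, where DES alone was above 0. In PFF it was 2126 to 3693, most of it DES. The sum of 4 blood cell markers was 101 to 156 in SCNT4c, 123 to 331 in SCNT8c, 325 to 453 in SCNT4c-KG and 128 to 198 in SCNT4c-TDG. The epithelial sum, led by EPCAM, was 1571 to 4124 in embryos against 5.09 to 11.9 in PFF.

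Expression in the donor cells was dominated by PRRX1. Per kilobase of annotated exon it had 7057 ± 53.2 in PFF, followed by RUNX1 with 833 ± 45.3, TWIST1 with 531 ± 6.44, ZEB2 with 434 ± 14.6, RUNX2 with 335 ± 11.97, SNAI2 with 302 ± 19.4, TCF21 with 187 ± 9.44 and TWIST2 with 29.3 ± 7.29. RUNX2 and SNAI2 lay closest to each other relative to their spread. SNAI1 had 1 read in PFF, and ZEB1 was listed at 0 in all 15 libraries.

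In SCNT4c the order was another. TWIST1 came first with 94.4 ± 37.7 per kilobase of exon, and its lowest library lay above every library of the other members. SNAI2 (15.9 ± 4.72), ZEB2 (11.2 ± 2.90), PRRX1 (10.1 ± 8.08) and RUNX2 (7.06 ± 1.43) followed, neighbours within each other's spread, and RUNX1 (2.00 ± 0.889) and TCF21 (1.94 ± 0.715) did not differ beyond theirs. TWIST1 was first in SCNT8c too (69.4 ± 54.1), whereas in SCNT4c-TDG its 18.9 ± 8.16 overlapped with SNAI2 at 10.2 ± 4.30. In SCNT4c-KG, SNAI1 was first with 119 ± 13.0 per kilobase, above TWIST1 with 20.9 ± 6.73 and RUNX1 with 15.2 ± 6.70. All further values are normalized signal per gene, not per length.

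**Figure D1:**
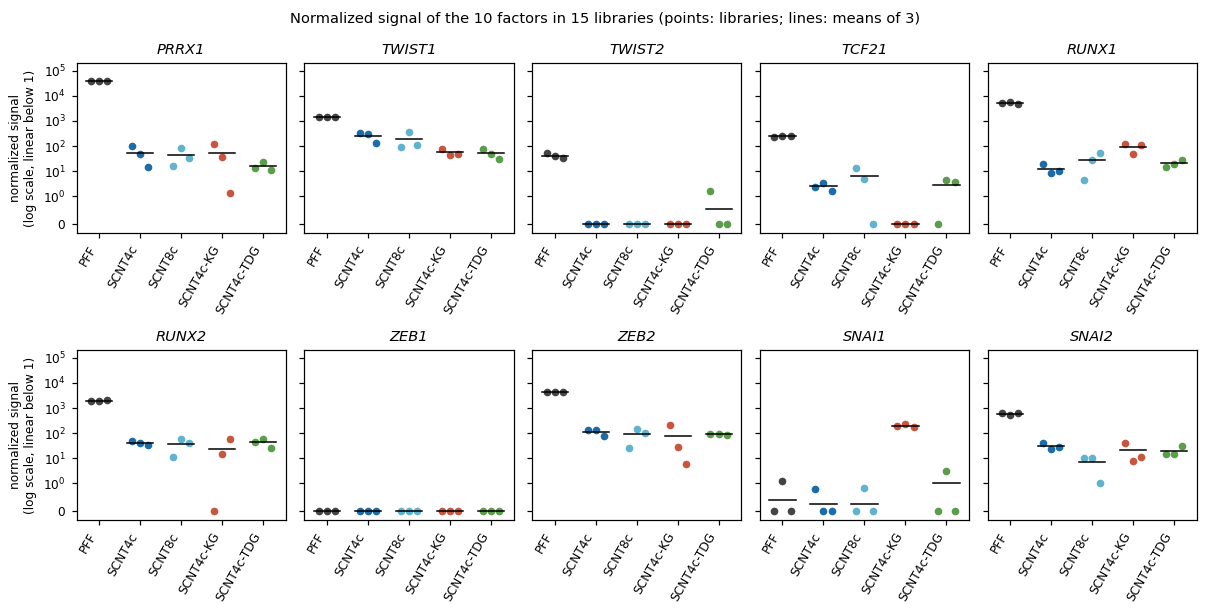
Normalized signal (vertical axis, log scale, linear near 0) of each of the 10 factors in the 15 libraries, by group; points are libraries and lines are means of 3. The factors other than SNAI1 and ZEB1 are highest in PFF, SNAI1 stands at 179.5 to 223 in SCNT4c-KG and at 3.07 or less elsewhere, and ZEB1 is at 0 in every library.

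PRRX1 (chr4:80427682-80502689, minus strand), the most abundant of the factors in fibroblasts, had 38845, 38605 and 38266 in PFF. Its values were 103, 48.9 and 14.9 for SCNT4c, 15.9, 80.6 and 32.8 for SCNT8c, 123, 38.1 and 1.42 for SCNT4c-KG, and 13.4, 23.8 and 10.7 for SCNT4c-TDG. The embryo groups overlapped with each other and lay far below PFF, and single SCNT4c-KG libraries ranged from 1 to 75 reads. The share of the PFF mean was 0.144% ± 0.114 for SCNT4c, 0.112% ± 0.0871 for SCNT8c, 0.140% ± 0.161 for SCNT4c-KG and 0.0414% ± 0.0179 for SCNT4c-TDG.

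TWIST1 (chr9:88286911-88290131, minus strand), a factor of mesoderm and neural crest, had 1419.5, 1447 and 1415 in PFF. Untreated embryos had 327, 296 and 138 at the 4-cell stage and 93.4, 354 and 112 at the 8-cell stage. Treated embryos had 76.8, 43.1 and 48.4 with KDM4A and GSK126, and 73.6, 49.1 and 29.8 with TDG. TWIST1 thus stood at 17.8% ± 7.10 of its PFF level in SCNT4c, 13.1% ± 10.2 in SCNT8c, 3.93% ± 1.27 in SCNT4c-KG and 3.56% ± 1.54 in SCNT4c-TDG, and both treated groups lay wholly below SCNT4c. With the same total in each library its share in SCNT4c was 27.5% ± 11.4, where the median of all features with a PFF mean of at least 50 was 30.3%.

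TWIST2 (chr15:138228640-138276341, plus strand), its close relative of dermal and other connective tissue, was low in PFF, with 52.5, 39.5 and 32.2 (101 reads in all). No read was found in SCNT4c, SCNT8c or SCNT4c-KG, and SCNT4c-TDG had 1.67 in replicate 1 (2 reads) and none in the others. A floor of 3 reads per library puts TWIST2 at least 16.6-fold lower in SCNT4c, 14.7-fold in SCNT8c and 9.57-fold in SCNT4c-KG. The ratio of PFF to SCNT4c-TDG was 78.7, with a 95% exact interval of 21.2 to 659 that, like the floor, covers counting error only.

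TCF21 (chr1:29975280-29978273, minus strand) had 228, 247 and 251 in PFF. Its values were 2.37, 3.495 and 1.66 at the 4-cell stage, 14.0, 4.99 and 0 at the 8-cell stage, 0 in each library with KDM4A and GSK126, and 0, 4.60 and 3.83 with TDG. With 21 reads or fewer per embryo group, the embryo groups could not be ordered at this depth. TCF21 in SCNT4c-KG was at least 56.0-fold lower than in PFF at the floor of 3 reads per library.

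RUNX1 (chr13:198371835-198635648, minus strand) had 5281, 5449.8 and 4896 in PFF. The 4-cell stage had 18.9, 8.74 and 9.96, the 8-cell stage 4.67, 27.4 and 52.8, embryos with KDM4A and GSK126 124, 47.0 and 114, and those with TDG 15.1, 19.2 and 28.3. The lowest SCNT4c-KG library was above the highest of SCNT4c and of SCNT4c-TDG, while SCNT8c overlapped with each of these groups. The share of the PFF level was 0.241% ± 0.107 for SCNT4c and 1.82% ± 0.805 for SCNT4c-KG. An assembled transcript without gene name that shares the table locus of RUNX1 had 1654 ± 131 in PFF, 93.3 ± 60.3 in SCNT4c and 155 ± 94.7 in SCNT4c-KG.

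RUNX2 (chr7:40106581-40353304, plus strand), a master factor of bone formation, had 1861, 1959 and 1994 in PFF. The 4-cell stage had 48.9, 41.1 and 32.4, the 8-cell stage 11.2, 57.4 and 42.3, embryos with KDM4A and GSK126 0, 15.2 and 57.0, and those with TDG 45.2, 61.4 and 26.8. The embryo groups overlapped. RUNX2 overlaps SUPT3H on the other strand, which had 951 ± 92.7 in PFF and 2008 ± 594 in SCNT4c. The strand setting of the counting is not given in the sources used here, so reads in any stretch of exon that the 2 share cannot be told apart. SUPT3H had at least 831 in each SCNT4c-KG library, of which 1 held no read of RUNX2. Whether RUNX2 values in other libraries hold reads of SUPT3H was not tested.

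Of the E-box repressors, ZEB2 (chr15:7498879-7631347, plus strand) had 4244, 4403 and 4539.8 in PFF. Untreated embryos had 132, 129 and 79.7 at the 4-cell stage and 26.1, 148 and 97.2 at the 8-cell stage, and treated embryos had 204, 27.9 and 5.70 with KDM4A and GSK126 and 97.0, 96.7 and 82.6 with TDG. The libraries with TDG lay close together, and those with KDM4A and GSK126 spanned the range of the other embryo groups. The share of the PFF level was 2.58% ± 0.668 for SCNT4c and 2.095% ± 0.186 for SCNT4c-TDG.

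SNAI2 (chr4:79264880-79268475, plus strand), also called Slug, had 607, 551 and 625 in PFF. Untreated embryos had 41.8, 24.5 and 27.4 at the 4-cell stage and 10.3, 9.98 and 1.06 at the 8-cell stage, and treated embryos had 42.5, 7.61 and 11.4 with KDM4A and GSK126 and 15.1, 15.3 and 29.8 with TDG. The SCNT8c libraries were all below those of SCNT4c, and the treated groups overlapped with SCNT4c. The share of the PFF level was 5.25% ± 1.56 for SCNT4c and 1.19% ± 0.881 for SCNT8c.

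SNAI1 (chr17:51546446-51552498, plus strand), also called Snail, was the exception. It had 1 read in PFF (0, 1.27 and 0), 1 in SCNT4c (0.789, 0 and 0), 1 in SCNT8c (0, 0.831 and 0) and 4 in SCNT4c-TDG (0, 3.07 and 0). With KDM4A and GSK126 it had 199, 223 and 179.5, which are 424 reads. No library of another group came near these values, and in the donor cells SNAI1 was at the limit of detection. Its table locus is shared with RNF114, which does not overlap it. RNF114 had 412 ± 137 in SCNT4c, 179 ± 104 in SCNT8c, 24.6 ± 4.56 in SCNT4c-KG and 7.62 ± 0.760 in SCNT4c-TDG.

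ZEB1 (chr10:42013114-42216139, plus strand) was listed at 0 throughout, as were PDGFRA in fibroblasts and GDF9 and BMP15 in embryos, so nothing is said of its expression. Its table locus also holds ZNF438, LOC110255584 and assembled transcripts without gene name. The transcript MSTRG.96325 had 552 ± 36.6 in PFF and 78.4 ± 30.4 in SCNT4c. The transcript MSTRG.96337 had 567 ± 49.96 in PFF, 317 ± 32.8 for SCNT4c, 373 ± 145 for SCNT8c, 60.6 ± 9.68 for SCNT4c-KG and 125 ± 34.2 for SCNT4c-TDG. Whether either belongs to ZEB1 was not tested.

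**Figure D2:**
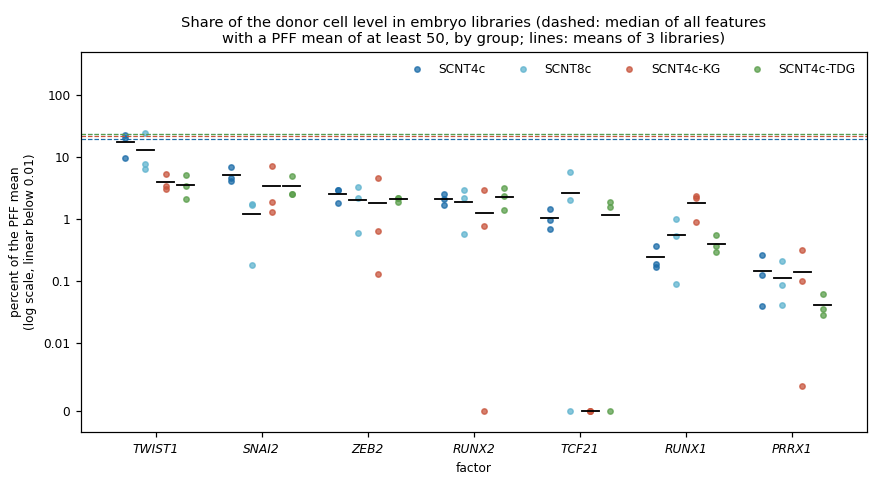
Share of the PFF mean (percent, log scale, linear below 0.01) left in the embryo libraries for the 7 members with a PFF mean of at least 50; points are libraries, lines are means of 3 and dashed lines are the median of all features with a PFF mean of at least 50. All group means lie under the dashed lines, which run at 19.6% to 24.2% and which single TWIST1 libraries of SCNT4c and SCNT8c reach, with TWIST1 in SCNT4c nearest to them at 17.8% and PRRX1 in SCNT4c-TDG at 0.0414%.

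Among the 7 members with a PFF mean of at least 50, the median share was 2.105% for SCNT4c, 1.91% for SCNT8c, 1.80% for SCNT4c-KG and 2.095% for SCNT4c-TDG. For all 9653 features with such a PFF mean, the medians were 19.6%, 23.7%, 22.0% and 24.2%. With the same total in each library the medians of the members were 3.25%, 3.06%, 2.501% and 3.90% and those of all these features 30.3%, 38.3%, 31.7% and 45.1%, so the shares of members and of all features depend on the scaling, most in SCNT4c-TDG. There TWIST1 stood at 6.64% ± 2.89 and PRRX1 at 0.0770% ± 0.0329 with the same total. Fewer cells of a type and less RNA per cell cannot be told apart in pooled embryos. PFF RNA was extracted with TRIzol and embryo RNA with a PicoPure kit, so cell type and extraction cannot be told apart in any comparison with PFF.

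In the test of SCNT4c against PFF, 8 of the 10 members were tested, since SNAI1 and ZEB1 did not reach a mean of 10. All 8 fell (adjusted p under 0.05 and fold above 2), where 38.5% of features tested fell (31.8% when each library was given the same total), 39.7% rose and 78.2% changed in all. The libraries of all 8 lay below PFF without overlap, as 84.5% of features did not overlap. TWIST2 and TCF21 passed the filter through PFF alone and had to differ, so the count is a description. TWIST1 had the smallest log2 change, -2.58 ± 0.34 (SE, limma, adjusted p = 0.000565), and PRRX1 the deepest, -9.79 ± 0.65 (adjusted p = 2.26e-05), followed by RUNX1 at -8.66 ± 0.31 (adjusted p = 2.01e-06). The changes of RUNX2 (-5.55 ± 0.21), ZEB2 (-5.30 ± 0.23) and SNAI2 (-4.24 ± 0.26) had adjusted p-values from 2.38e-06 to 1.67e-05. These are changes of log2(value + 1), in which the added 1 understates the change of genes with low values. They also average logs over libraries that differ, which can overstate a change. For PRRX1 the fitted fold was 886, against 695 from the means. The median change of all features was 0.07, or 0.92 with the same total in each library. The size of the fall of TWIST1 depended on the scaling, with -1.63 after quantile normalization, -1.96 with the same total, -1.76 in edgeR and -1.72 in DESeq2. Over all alternatives the change was -10.42 to -8.68 for PRRX1, -9.98 to -6.20 for RUNX1, -5.69 to -4.79 for RUNX2, -5.42 to -4.49 for ZEB2 and -4.47 to -3.47 for SNAI2.

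In SCNT8c all 8 members tested against PFF fell, beside 36.8% of features that fell (29.0% with the same total), 33.7% that rose, 70.5% that changed and 77.3% that did not overlap. Their log2 changes ran from -10.07 ± 0.56 for PRRX1 to -3.196 ± 0.53 for TWIST1 (adjusted p = 0.00191; -3.79 to -2.32 over all alternatives), and TWIST2, TCF21 and SNAI2 passed the filter through PFF alone there. With TDG all 8 fell, beside 40.3% of features that fell (29.8% with the same total), 39.3% that rose, 79.6% that changed and 87.7% that did not overlap. The changes ran from -11.23 ± 0.27 for PRRX1 to -4.87 ± 0.31 for TWIST1 (adjusted p = 6.98e-06; -5.18 to -3.99 over all alternatives), and TWIST2 and TCF21 passed through PFF alone. In SCNT4c-KG 9 members were tested. Of these 8 fell, beside 37.1% of features (31.2% with the same total), and SNAI1, which passed the filter through SCNT4c-KG alone, was higher, beside 39.8% of features. TWIST2 and TCF21, with no read in SCNT4c-KG, passed through PFF alone. In this comparison 76.9% of features changed and 84.0% did not overlap. Members that passed through 1 group alone had to differ, so these counts too are descriptions. The 4 comparisons share the PFF libraries.

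The genes that work with or under these factors were counted from lists. For SCNT4c against PFF, 10 of 11 partners and corepressors fell, with a median log2 change of -3.503, beside 38.5% of all features that fell, 39.7% that rose and a median of 0.07. The filter kept only genes with a mean of at least 10 over both groups, so a gene that passed through PFF alone had to be lower and one that passed through the embryos alone had to be higher, and the counts of the lists are descriptions. A mean under 10 in SCNT4c was found for 1 of the 11 partners, 2 of 17 signalling genes, 2 of 10 effector genes and 12 of 23 other factors, and one under 10 in PFF for 5 of 8 epithelial genes, 3 of the signalling genes, 4 of the other factors and 1 of the partners. CTBP1, a corepressor used by SNAI and ZEB proteins, had 11.9 ± 19.1 against 1309 ± 124 in PFF. ID1 and ID4, inhibitors of helix-loop-helix factors, had 61.7 ± 94.2 against 4786 ± 731 and 11.3 ± 12.1 against 1076 ± 26.6. Of the TGF-beta and BMP signalling genes, which act upstream of the factors, 14 of 17 fell and 2 rose, with a median of -4.71. The largest falls were those of the receptor TGFBR2 (20.3 ± 7.89 against 6569 ± 228), the corepressor SKI (7.19 ± 2.63 against 1445 ± 49.7) and the inhibitory SMAD7 (11.9 ± 1.54 against 1317 ± 90.3).

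Of the mesenchymal effector genes 10 of 10 fell, with a median of -10.24, again beside 38.5% of all features that fell and 39.7% that rose. PDGFRB, a growth factor receptor of mesenchymal cells, had 10964 ± 1439 in PFF and no read in SCNT4c. MMP2, a matrix protease, had 6.82 ± 8.07 against 35549 ± 2027, and COL1A1, a chain of type I collagen, had 549 ± 241 against 1632886 ± 85828. PDGFRB and MMP2 passed the filter through PFF alone. Of the epithelial genes and factors 8 of 8 tested, out of 13 listed, rose, with a median of 5.19, or 4.83 with genes at 0 in PFF set to the floor. EPCAM, an epithelial adhesion molecule, had no read in PFF and 2862 ± 153 in SCNT4c, GRHL2, an epithelial transcription factor, had none and 226 ± 90.1, and CLDN7, a tight junction protein, had 2.46 ± 0.0828 and 255 ± 10.9. These 3 passed the filter through the embryos alone and had to rise. Of the other mesenchymal transcription factors 17 of 23 fell and 2 rose, with a median of -3.94, or -3.42 at the floor. PRRX2, the paralog of PRRX1, had 2.91 ± 4.33 against 3939 ± 66.2, and the forkhead factor FOXF1 (517 ± 21.6 in PFF) and the zinc finger factor OSR1 (474 ± 24.3 in PFF) had no read in SCNT4c. These 3 passed through PFF alone and had to be lower.

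In SCNT8c, 9 of 10 partners, 14 of 16 signalling genes, 10 of 10 effector genes and 16 of 19 other factors were lower than in PFF, beside 36.8% of features, and 6 of 7 epithelial genes, 2 signalling genes and 0 other factors were higher, beside 33.7%. In SCNT4c-KG, 10 of 11 partners, 14 of 17 signalling genes, 10 of 10 effector genes and 16 of 21 other factors were lower than in PFF, beside 37.1% of features, and 6 of 8 epithelial genes, 1 signalling gene and 2 other factors were higher, beside 39.8%. In SCNT4c-TDG, 10 of 10 partners, 13 of 16 signalling genes, 10 of 10 effector genes and 17 of 21 other factors were lower than in PFF, beside 40.3% of features, and 6 of 8 epithelial genes, 1 signalling gene and 2 other factors were higher, beside 39.3%. Of the epithelial genes, 4, 5 and 5 in the tests of SCNT8c, SCNT4c-KG and SCNT4c-TDG had a mean under 10 in PFF, and of the other factors 9, 8 and 10 had one in those embryos.

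Between SCNT8c and SCNT4c, 0 of the 7 members tested changed in limma, beside 5.79% of features (3.16% lower and 2.62% higher). That share depends on single libraries: 1096 features were called, 174, 31 and 234 without library a, b or c of SCNT4c, 41, 51 and 6133 without replicate 1, 2 or 3 of SCNT8c, and 0 in a fit of the 2 groups alone, while edgeR called 842 and DESeq2 2733. The tests between embryo groups used the 12 embryo libraries and left out TWIST2, TCF21 and ZEB1 for low values. The count of members was 1 at an unadjusted p under 0.05, 0 in edgeR and 0 in DESeq2. SNAI2, with a log2 change of -2.31 ± 0.92 (adjusted p = 0.118), was the 1 member whose libraries did not overlap between the stages, beside 23.5% of features. TWIST1 changed by -0.61 ± 0.61 (adjusted p = 0.524) and ZEB2 by -0.60 ± 0.96 (adjusted p = 0.704). RUNX1 (0.68 ± 0.86), RUNX2 (-0.40 ± 1.16), PRRX1 (-0.28 ± 1.201) and SNAI1 (0.01 ± 0.96), none of them called, had changes smaller than their standard errors. Of the lists, TLE3, a corepressor that RUNX proteins use, rose from 516 ± 257 to 2155 ± 1295 (adjusted p = 0.0496). The collagen chain COL1A2 fell from 2535 ± 282 to 923 ± 65.3 (adjusted p = 0.0205), and ESRP1, an epithelial splicing factor, from 5546 ± 234 to 2366 ± 1795 (adjusted p = 0.0411). None of these 3 was called in a fit of the 2 groups alone, which called 0 of 18184 features, and edgeR and DESeq2 called 0 and 0 of the epithelial genes. Of 15 signalling genes 0 passed in limma, 2 had an unadjusted p under 0.05, and edgeR called 1 and DESeq2 2. Of 14 other mesenchymal factors 0 passed in limma, 3 had an unadjusted p under 0.05, and edgeR called 0 and DESeq2 2.

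With KDM4A and GSK126, 3 of the 7 members tested changed against SCNT4c, beside 37.2% of features. TWIST1 fell, beside 19.6% of features, and SNAI1 and RUNX1 rose, beside 17.6%. The same 3 members did not overlap between the groups, beside 53.9% of features, and the share of members is near that of all features. TWIST1 changed by -2.105 ± 0.61 (adjusted p = 0.0136) on the log2 scale. SNAI1 went from 1 to 424 reads, a ratio of 729.5 with a 95% exact counting interval of 130.2 to 28882, and its fitted log2 change was 7.37 ± 0.96 (adjusted p = 4.07e-05). It passed the filter through SCNT4c-KG alone and had to differ. RUNX1 changed by 2.78 ± 0.86 (adjusted p = 0.0194). The sum of the blood cell markers was also higher, at 325 to 453 in SCNT4c-KG and 101 to 156 in SCNT4c, most of it CD68. These markers did not move together: the means of CD68 and PTPRC were higher in SCNT4c-KG, that of CSF1R was not, and SPI1 was at or near 0. Of the 4 markers 2 (CD68 and PTPRC) had a mean of at least 10 in each group. CD68 was also found in PFF, where it made up nearly all of a sum of 75.1 to 89.2. The part of these markers in the result was not tested.

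The calls for TWIST1 and RUNX1 did not hold in every setting. For TWIST1 the adjusted p was 0.0551 without library a of SCNT4c and 0.0549 without library b. For RUNX1 it was 0.0620 without SCNT4c library b, 0.0519 without library c, 0.0643 without SCNT4c-KG replicate 1 and 0.0598 without replicate 3. Summed with the assembled transcript of its locus, RUNX1 changed by 1.31 (adjusted p = 0.0987). Over all alternatives the adjusted p was 0.00544 to 0.0551 for TWIST1, 0.000863 to 0.0987 for RUNX1 and 6.21e-10 to 0.00201 for SNAI1. Of the members not called, ZEB2 changed by -1.71 ± 0.96 (adjusted p = 0.170) and RUNX2 by -2.07 ± 1.16 (adjusted p = 0.169), PRRX1 by -0.94 ± 1.201 (adjusted p = 0.560) and SNAI2 by -0.91 ± 0.92 (adjusted p = 0.451). Without SCNT4c-KG replicate 1 the change of ZEB2 was -3.01 (adjusted p = 0.0128), and without replicate 3 that of RUNX2 was -3.36 (adjusted p = 0.0330). These are the libraries in which each was highest.

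**Figure D3:**
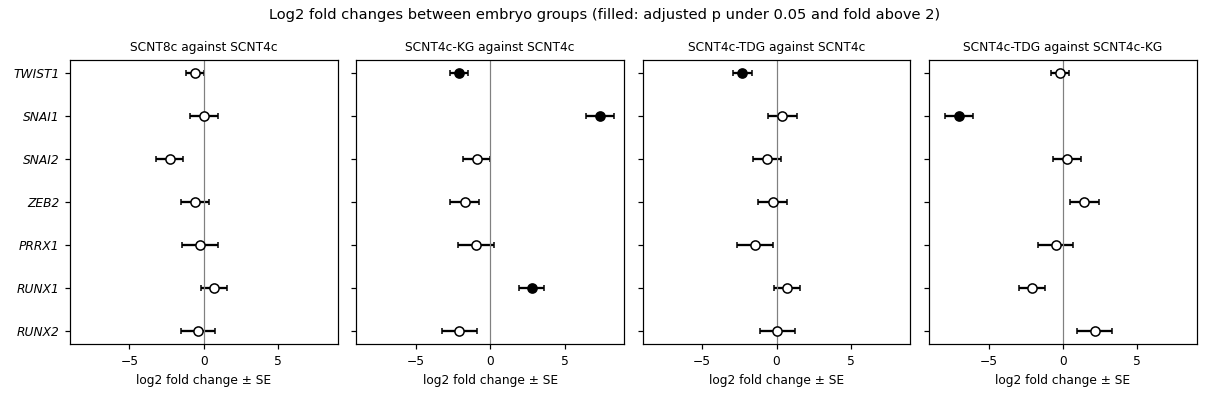
Log2 fold changes with standard errors of the 7 members tested in the 4 comparisons between embryo groups; filled points had an adjusted p under 0.05 and a fold above 2. SNAI1 is at 7.37 in SCNT4c-KG against SCNT4c and at -6.98 in SCNT4c-TDG against SCNT4c-KG, TWIST1 is called for both treatments, and no member is called for SCNT8c against SCNT4c.

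BMP4 was high in SCNT4c-KG alone, the embryos in which SNAI1 was high. CDH1 and CLDN7 were higher than in SCNT4c with either treatment. Any link between SNAI1, BMP4 and these genes was not tested. Of 15 signalling genes 2 rose and 4 fell in SCNT4c-KG against SCNT4c, beside 17.6% of all features that rose and 19.6% that fell. The share of the list called is thus near that of all features (37.2%). Of the 4 that fell, SMAD5 (15.5 ± 10.9 to 0.846 ± 1.47) passed the filter only with the SCNT4c libraries and had to be lower. Its call is therefore a description. BMP4, a ligand that patterns mesoderm, went from 57.6, 2.62 and 11.6 to 1227, 1123 and 1012 in the 3 libraries of each group (adjusted p = 7.15e-05). The groups were far apart, although the SCNT4c libraries differed among themselves. SMAD7 rose from 11.9 ± 1.54 to 176 ± 26.4 and the BMP receptor ACVR1 fell from 343 ± 127 to 13.3 ± 13.9. Of 8 epithelial genes 2 rose and 4 fell. CDH1, the E-cadherin gene that SNAI1 is known to repress, went from 23.7, 19.2 and 21.6 to 629, 852 and 819 (adjusted p = 9.29e-07). CLDN7 rose from 255 ± 10.9 to 13847 ± 3238, and ESRP2, an epithelial splicing factor, fell from 81.7 ± 47.8 to 21.8 ± 37.7. EPCAM, named after its values were seen, fell from 2862 ± 153 to 967 ± 288. Over all alternatives 5 to 7 signalling genes, 3 to 7 epithelial genes, 3 to 4 effector genes, 1 to 3 partners and 1 to 5 other factors were called.

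Beside the same 19.6% of features that fell and 17.6% that rose, of 9 effector genes 3 fell, namely COL1A2 (2535 ± 282 to 472 ± 107), the matrix protein SPARC (2412 ± 559 to 836 ± 516) and fibronectin, FN1 (508 ± 105 to 159.7 ± 76.6). The 1 that rose was the intermediate filament gene VIM (482 ± 184 to 1379.7 ± 247), which is named after its values were seen. Of 9 partners 1 fell, ID2 (190.4 ± 51.1 to 43.3 ± 19.95). Of 14 other mesenchymal factors EBF3 was higher, from no read to 33.9 ± 30.1, and had to be, since it passed the filter through the treated groups alone, and TBX15 fell, from 188 ± 133 to 25.9 ± 25.01. The median log2 changes were 0.69 for partners, -1.51 for signalling genes, -0.49 for effector genes, -1.07 for epithelial genes and 0.92 for other factors, beside -0.30 for all features. The sum of 12 fibroblast markers was 2515 to 3762 in SCNT4c-KG and 3698 to 4876 in SCNT4c, most of the latter COL1A2. The markers did not move together: 3 had all SCNT4c-KG libraries above SCNT4c, namely VIM, THY1 (106 ± 55.2 to 700.0 ± 236) and S100A4 (6.59 ± 3.09 to 207 ± 58.3), 3 had all below, and the means of 6 were lower in all. Their part in these changes was not tested.

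**Figure D4:**
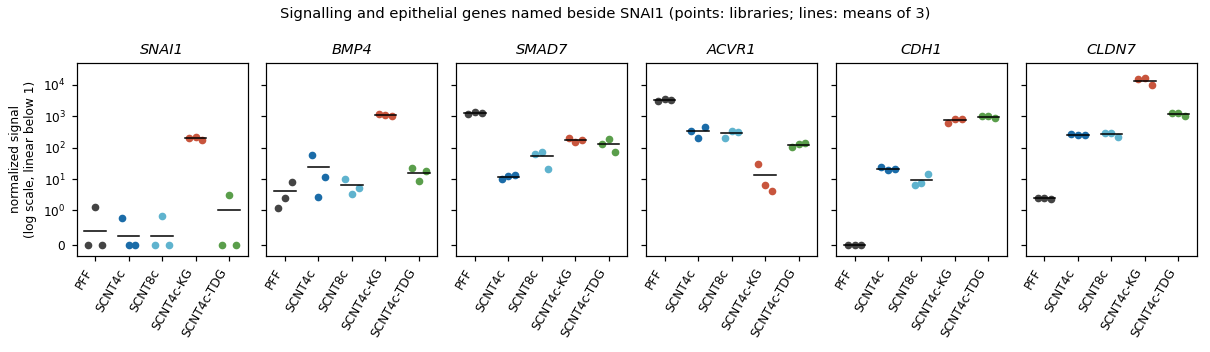
Normalized signal (vertical axis, log scale, linear near 0) of SNAI1 and of 5 signalling and epithelial genes in the 15 libraries; points are libraries and lines are means of 3. SNAI1 and BMP4 are highest in SCNT4c-KG, whereas CDH1 is high in both SCNT4c-KG (mean 767) and SCNT4c-TDG (mean 981).

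With TDG, 1 of the 7 members tested changed against SCNT4c, beside 33.3% of features (17.6% lower and 15.7% higher). TWIST1 had a log2 change of -2.29 ± 0.61 (adjusted p = 0.00928, and 0.00225 to 0.0460 over all alternatives), and it was the 1 member whose libraries did not overlap with SCNT4c, beside 58.4% of features. SNAI1 had 4 reads in replicate 2 and none in the others. RUNX1 changed by 0.72 ± 0.86 (adjusted p = 0.546), PRRX1 by -1.43 ± 1.201 (adjusted p = 0.375), SNAI2 by -0.65 ± 0.92 (adjusted p = 0.618) and ZEB2 by -0.27 ± 0.96 (adjusted p = 0.852). The fitted changes of RUNX2 and SNAI1 were 0.06 ± 1.16 (adjusted p = 0.971) and 0.40 ± 0.96 (adjusted p = 0.780). The comparisons of both treatments share the SCNT4c libraries.

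Of 15 signalling genes 5 rose and 1 fell with TDG, beside 15.7% of all features that rose and 17.6% that fell. With the same total in each library the order of these shares turned, with 3512 features higher and 2733 lower. Of all features 33.3% were called. The shares called of signalling genes, partners, effector genes and other factors are near that. SMAD7 reached 134 ± 59.6, the receptor TGFBR1 had 1909 ± 317 against 209.6 ± 59.4, and the BMP effector SMAD1 fell to 5.74 ± 5.17 from 38.0 ± 13.2. Of 9 partners ID4 (11.3 ± 12.1 to 124 ± 75.2) and ID1 (61.7 ± 94.2 to 176 ± 16.8) rose and ID3 fell (8196 ± 3638 to 1062 ± 251). Of 9 effector genes 3 fell, which were SPARC (to 131 ± 37.7), COL1A2 (to 449 ± 51.9) and COL1A1 (549 ± 241 to 155 ± 50.7). Of 8 epithelial genes 2 rose and 3 fell. CDH1 rose to 981 ± 98.2 and CLDN7, named after its values were seen, to 1197 ± 163 (adjusted p = 4.74e-05). CLDN4 (279.9 ± 236 to 38.2 ± 42.4) and CRB3 (583 ± 296 to 109 ± 23.5) fell. Of 14 other factors 3 rose and 1 fell, led by RUNX3, a relative of RUNX1 and RUNX2 (2.33 ± 4.04 to 55.3 ± 20.9), EBF3 (no read to 20.3 ± 8.84) and EBF2 (35.2 ± 23.9 to 3.83 ± 4.79). RUNX3 passed the filter through SCNT4c-TDG alone and EBF3 through the treated groups alone, so both had to be higher and their calls are descriptions. The median log2 changes were -0.27 for partners, 0.21 for signalling genes, -0.98 for effector genes, -0.96 for epithelial genes and 0.66 for other factors, beside -0.26 for all features. Over all alternatives 3 to 7 signalling genes, 3 to 6 epithelial genes, 3 to 5 effector genes, 2 to 3 partners and 1 to 6 other factors were called. The sum of fibroblast markers was 1585 to 2011 here, with 3 markers above SCNT4c in all libraries and 4 below.

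A direct test of SCNT4c-TDG against SCNT4c-KG called 1 of the 7 members, beside 16.2% of features (9.13% lower and 7.07% higher). SNAI1 was lower with TDG, with a log2 change of -6.98 ± 0.96 (adjusted p = 0.000274). It passed the filter through SCNT4c-KG alone and had to differ, so this call is a description. It had 4 reads against 424, a ratio of SCNT4c-KG to SCNT4c-TDG of 192 with a counting interval of 74.4 to 708. SNAI1 and RUNX1 were the 2 members whose libraries did not overlap, beside 44.4% of features. RUNX1 changed by -2.06 ± 0.86 (adjusted p = 0.117), so its rise with KDM4A and GSK126 was not shown to differ from its change with TDG. It passed in a fit of the 2 groups alone (adjusted p = 0.0170) and with a pseudocount of 10 (adjusted p = 0.0455). TWIST1, which fell with both treatments, changed by -0.19 ± 0.61 (adjusted p = 0.874) between them, and the sign of this difference turned with the scaling of the libraries. ZEB2 changed by 1.44 ± 0.96 (adjusted p = 0.338), and by 2.74 without SCNT4c-KG replicate 1 (adjusted p = 0.0462). RUNX2 changed by 2.14 ± 1.16 (adjusted p = 0.234), PRRX1 by -0.50 ± 1.201 (adjusted p = 0.824) and SNAI2 by 0.27 ± 0.92 (adjusted p = 0.882).

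Of 15 signalling genes 6 were higher with TDG than with KDM4A and GSK126 and 1 was lower, beside 7.07% of all features that were higher and 9.13% that were lower. With the same total in each library the order of these shares turned, with 2051 features higher and 1145 lower. The lower one was BMP4 (16.2 ± 7.17 against 1121 ± 108, adjusted p = 0.000375). SMAD5 (19.7 ± 10.5 against 0.846 ± 1.47) and ACVR1 (125 ± 19.6 against 13.3 ± 13.9) were among those higher. SMAD5 reached the mean of 10 only with the SCNT4c-TDG libraries and had to differ, so its call is a description. CLDN7 was lower (1197 ± 163 against 13847 ± 3238) and EPCAM higher (3025 ± 72.4 against 967 ± 288) among 8 epithelial genes. Of 9 effector genes 1 was lower, SPARC, and of 9 partners TCF4, a helix-loop-helix partner of TWIST proteins, was lower (26.4 ± 14.5 against 101 ± 12.6), as was ID3, while ID2 was higher. RUNX3, which passed the filter through SCNT4c-TDG alone and had to differ, was higher (55.3 ± 20.9 against 2.72 ± 4.72), and EBF2 and NR2F2 were lower, among 14 other factors, of which edgeR called 0 and DESeq2 2. Over all alternatives 5 to 8 signalling genes, 2 to 4 epithelial genes, 1 to 2 effector genes, 0 to 5 partners and 0 to 3 other factors were called.

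Across the 12 embryo libraries, the genes most like each member were found for 7 members among 6633 known genes with a mean of at least 50, by Pearson r of log2(value + 1). The libraries share groups and differ in depth, so the r values are a description. SNAI1 was most like TRNAH-GUG, UFD1 and RPS20 (r from 0.975 to 0.961). TWIST1 was most like ISCU, ITIH2 and TOR1A (r from 0.949 to 0.944), and PRRX1 most like THTPA, YWHAH and RNF149 (r from 0.9004 to 0.867). The nearest to RUNX1 were GABPB2, HSP70.2 and FAIM (r from 0.861 to 0.833), and to RUNX2 P2RY1, HPS3 and GNAO1 (r from 0.867 to 0.857). TWIST2, TCF21 and ZEB1 were left out for low values. Those of ZEB2 were FBXO18, LRRFIP2 and ITGA8 (r from 0.883 to 0.854), and those of SNAI2 TRIML2, HSPA1L and TYK2 (r from 0.865 to 0.823).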

How the data were processed

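Total RNA of PFF and of pooled embryos was amplified with a SMARTer Pico kit and sequenced. Per the submitters' processing notes and the methods, the authors trimmed reads with Trimmomatic 0.39, aligned uniquely mapped reads to Sscrofa11.1 with STAR 2.5.3a, assembled transcripts with StringTie 2.1.2 and counted with HTSeq. The deposited values are normalized signal: read counts divided by 1 factor per library. How the factors were derived is not given in the sources used here. Against a median-of-ratios factor over the 15 libraries they scaled PFF by 1.19 to 1.22 and embryos by 0.857 to 1.05, which bears on every share and fold against PFF. All values of each library were whole multiples of what 1 read is worth (100% within 0.01 read), so reads were recovered, and the factors make a fold change relative to the library scaling. The table listed 43535 entries, of which 241 repeated ones were removed.

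Groups follow the labels. The SCNT4c libraries are called a, b and c because their labels number them in conflicting ways, and embryos produced in vivo were not analysed here. Log2(value + 1) of features with a mean of at least 10 was tested with limma 3.58.1 (trend) with Benjamini-Hochberg adjustment over all features tested, on the 6 libraries of each comparison with PFF and on all 12 embryo libraries between embryo groups. Features with an adjusted p below 0.05 that moved more than 2-fold were called changed. Alternatives were edgeR 4.0.16 and DESeq2 1.42.0 on recovered reads, other pseudocounts, filters and scalings, other fits, locus sums and left-out libraries. On recovered reads edgeR called 14797 features in SCNT4c, 12508 in SCNT8c, 14485 in SCNT4c-KG and 14322 in SCNT4c-TDG against PFF, and 842, 5831 and 5528 in SCNT8c, SCNT4c-KG and SCNT4c-TDG against SCNT4c, and 2555 between the treated groups. The script was tested on simulated data. Pathway genes are named by a rule: the 3 called genes of a list with the largest change. Members and lists were chosen with earlier results of these data known. Sequencing batches are not given in the sources used here.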

Additional observations from a re-analysis of the deposited data

Results flagged for a closer look

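SNAI1 differed between the effects of TDG and of KDM4A with GSK126: the test of the difference gave a log2 change of -6.98 (limma, adjusted p = 0.000274). SNAI1 passed the filter on low values through SCNT4c-KG alone and had to differ, so this is a description.

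Assembled transcripts without gene name, which the comparisons do not use as genes, lay above every SCNT4c library in PFF at the table loci of members. At the ZEB1 locus MSTRG.96325 had a mean of 552 in PFF and MSTRG.96337 had 567, while ZEB1 was listed at 0. At the RUNX1 locus MSTRG.121727 had 1654. Which gene they belong to was not tested. With 3 libraries a group, no test for outlying libraries was made.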

How the results depend on the processing

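Against PFF, 578 of 578 alternative values of the members kept their direction and their side of the threshold, over other pseudocounts, filters, scalings, tools, fits and left-out libraries. Between embryo groups 423 of 465 did, 7 lost the call, 5 gained it and 30 changed sign, none of them called. The count of members called in SCNT4c-KG against SCNT4c was 1 to 3 with a library left out (lowest without SCNT4c library b). In SCNT4c-TDG against SCNT4c-KG it was 2 with a pseudocount of 10, 2 in a fit of the 2 groups alone and 1 to 2 with a library left out. The cause was not tested. The median share of the PFF level over the 8 members measured there was 1.57%, 1.55%, 1.52% and 1.72% in SCNT4c, SCNT8c, SCNT4c-KG and SCNT4c-TDG, and with the same total in each library 2.43%, 2.53%, 2.19% and 3.21%, since PFF have the larger totals. With a library left out it was 0.964 to 1.88% in SCNT4c-KG. Changes of uncalled members that turned sign were, for SCNT8c against SCNT4c, PRRX1 at 0.0578 with quantile normalization, RUNX2 at 0.0284 in edgeR and 0.13 in DESeq2 and RUNX1 at -0.73 summed with its locus. For SCNT4c-KG against SCNT4c, PRRX1 was at 0.12 in edgeR and 0.13 in DESeq2. For SCNT4c-TDG against SCNT4c, ZEB2 was at 0.0252 with quantile normalization and 0.00434 with the same total, and RUNX1 at -0.14 summed with its locus. For SCNT4c-TDG against SCNT4c-KG, TWIST1 was at 0.0597 with quantile normalization, 0.17 with the same total, 0.0245 in edgeR and 0.00113 in DESeq2. With a library left out the ranges that crossed 0 were -0.9998 to 0.35 for PRRX1, -0.28 to 0.29 for SNAI1, -1.11 to 0.11 for ZEB2, -0.0189 to 1.60 for RUNX1 and -0.84 to 0.29 for RUNX2 in SCNT8c against SCNT4c, -2.16 to 0.67 for PRRX1 in SCNT4c-KG against SCNT4c, -0.28 to 0.73 for SNAI1 and -0.20 to 0.38 for RUNX2 in SCNT4c-TDG against SCNT4c, and -0.49 to 0.14 for TWIST1, -2.11 to 0.73 for PRRX1 and -0.21 to 0.96 for SNAI2 in SCNT4c-TDG against SCNT4c-KG. The share of lower calls among all calls moved from 50.6% to 37.5% with the same total for SCNT4c-TDG against PFF, from 56.4% to 35.8% for SCNT4c-TDG against SCNT4c-KG, and from 54.7% to 20.5% in edgeR for SCNT8c against SCNT4c. With the replicate number as a replicate block, 8 members were called in SCNT8c against PFF and 9 in SCNT4c-KG against PFF and 8 in SCNT4c-TDG against PFF and 1 in SCNT4c-TDG against SCNT4c-KG, as without it. Deviations of same-numbered libraries correlated at -0.0781 to 0.309 over 18 pairs, so shared numbers are not read as pairing, and the SCNT4c libraries carry no number that the labels give without conflict. Depth limits SNAI1, TWIST2 and TCF21, which rest on few reads in most groups.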
